A study of Mus musculus with 27 samples.

Results

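The genes described here encode 7 subunits of the GABA-A receptor: Gabra2, Gabra3, Gabra4, Gabra5, Gabrb1, Gabrb2 and Gabrd. They were taken from the deposited table by their symbols and not by a cut on their values, but with earlier results of these data known. They are 7 of its 59489 entries, of which 23508 carry a symbol. RNA had been prepared from primary cortical cells of wild type mouse embryos (embryonic day 16.5) after 14 days in culture, and polyadenylated RNA was sequenced in 27 libraries, with 3 in each of 9 groups. Every group, controls included, received an inhibitor of RNA polymerase II transcription, so no group without an inhibitor was analysed here. In 9 libraries this was DRB (50 µM for 2 h), which blocks elongation, and the cells were unstimulated, given bicuculline (20 µM for 1 h) or given BDNF (50 ng/mL for 1 h), the ligand of the receptor TrkB. The labels of these 9 libraries name no RNA fraction. In the other 18 libraries the inhibitor was triptolide (1 µM for 3 h), which blocks initiation, the cells were unstimulated or given bicuculline (20 µM for 1 h), and RNA came from whole cell extract, nuclei or cytosol. Intron retention is the subject the submitters name for the study, but the table analysed here holds 1 value per gene and library, so the comparisons are of gene levels.

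GABA-A receptors are chloride channels built of several subunits around a central pore, and they carry most fast inhibition in the cortex. Bicuculline competes with GABA at these receptors, so in cultured networks it removes inhibition and raises firing. A typical synaptic receptor joins alpha and beta subunits with a gamma subunit, whereas receptors with the delta subunit lie mostly outside synapses and answer low, steady GABA. The alpha subunit sets much of the pharmacology: alpha 2 and alpha 3 receptors are largely synaptic, alpha 5 receptors are mostly extrasynaptic in pyramidal neurons, and alpha 4 is the usual partner of delta in the forebrain. The beta subunits line the agonist site together with alpha and bind the proteins that move receptors to and from the surface.

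All 4 alpha genes of the set are on the minus strand in the deposited mm10 gene models. Gabra2 lies at chr5:70959481-71095850, Gabra4 at chr5:71569730-71658309, Gabra3 at chrX:72432676-72656919 and Gabra5 at chr7:57407669-57510061. Gabrb1 (chr5:71699950-72138916, plus strand) is the longest of the set, at 439 kb. Gabrb2 (chr11:42419755-42632590, plus strand) spans 213 kb. Gabrd (chr4:155384979-155398069, minus strand) is the shortest, at 13.1 kb. In GENCODE M21, Gabra4 and Gabrb1 stand head to head and their models overlap by 196 bases, and Gabra3, Gabra4, Gabra5 and Gabrb1 each overlap at least 1 gene on the other strand. The library kit keeps strand, but the strand setting of the counting is not given in the sources used here, so reads of such partners may be shared.

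RefSeq promoter windows (build GRCm38.p6) were matched by symbol for 6 of the 7 genes, in 10 windows, and the 250 bases before the start were searched. They are shown for 3 genes whose behaviour differs below, Gabra2, Gabra3 and Gabrb1, each with a window that ends within 18 bases of the deposited gene model. Capitals mark the GC box GGGCGG and the TATA box TATAAA, on either strand. The Gabra2 window is chr5:71095850-71096099, that of Gabra3 chrX:72656920-72657169, both read from the minus strand, and that of Gabrb1 chr5:71699682-71699931, read from the plus strand.
Gabra2: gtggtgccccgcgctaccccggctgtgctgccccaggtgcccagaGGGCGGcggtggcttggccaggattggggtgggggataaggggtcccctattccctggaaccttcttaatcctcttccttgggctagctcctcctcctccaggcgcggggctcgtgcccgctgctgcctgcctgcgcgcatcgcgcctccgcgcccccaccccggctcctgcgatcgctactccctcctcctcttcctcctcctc
Gabra3: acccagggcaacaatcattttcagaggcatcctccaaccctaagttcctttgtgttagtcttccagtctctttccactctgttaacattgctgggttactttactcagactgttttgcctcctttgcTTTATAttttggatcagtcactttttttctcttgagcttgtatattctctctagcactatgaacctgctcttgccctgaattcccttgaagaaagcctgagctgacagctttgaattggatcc
Gabrb1: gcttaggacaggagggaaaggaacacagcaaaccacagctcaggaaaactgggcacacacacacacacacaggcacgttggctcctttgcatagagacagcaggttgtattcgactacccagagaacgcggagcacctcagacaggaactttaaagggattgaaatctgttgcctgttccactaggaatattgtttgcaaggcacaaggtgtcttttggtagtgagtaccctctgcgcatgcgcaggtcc
The Gabra2 window is GC-rich (70% G or C, 18 CpG pairs). The Gabra3 window shown has 42.4% and 0 CpG pairs, and the Gabrb1 window shown has 50.8% and 6. The median was 52.4% over 32851 windows of this length. Gabrb1 has another window, chr5:71657671-71657920, whose start lies 42029 bases from that of the deposited model. It has 64.4% and 18 CpG pairs, as many pairs as the Gabra2 window. The other Gabra3 window has 39.2% and 0. GGGCGG is present in the Gabra2 window and in 32.7% of all windows, and TATAAA in the Gabra3 window and in 12.4%. Neither is in the windows of Gabrb1. None of the 10 windows of these genes holds TGACGTCA (1.55% of all windows), its part TGACG (17.8%) or the AP-1 motif TGANTCA (6.75%), on either strand, which says only that these letters are not in these windows.

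Values are FPKM, fragments scaled to gene model length and library depth, so levels may be compared between genes. All 7 genes had at least 1 FPKM in 27 of 27 libraries and therefore passed the filter on low values in every comparison. Over the 27 libraries Gabra2 ran from 48.4 to 134 FPKM, Gabrb2 from 35.1 to 80.1, Gabra5 from 34.8 to 70.6, Gabra3 from 28.6 to 54.5 and Gabra4 from 24.8 to 43.3. Gabrb1 ran from 13.9 to 28.0 FPKM and Gabrd from 5.08 to 11.8. In unstimulated whole cells under triptolide the order of mean levels was Gabra2 (101 FPKM), Gabra5 (57.4), Gabrb2 (51.9), Gabra3 (42.9), Gabra4 (33.8), Gabrb1 (24.0) and Gabrd (7.93). Only the neighbours Gabra5 and Gabrb2 had overlapping libraries in that order. Under DRB without stimulus Gabra2 (62.7 FPKM) and Gabrb2 (62.5) stood together at the top, followed by Gabra5 (40.6), Gabra3 (39.0) and Gabra4 (30.7), whose libraries overlapped from neighbour to neighbour, and then Gabrb1 (19.4) and Gabrd (8.80), which were apart. Gabrd was the lowest of the 7 in all 9 groups.

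**Figure D1:**
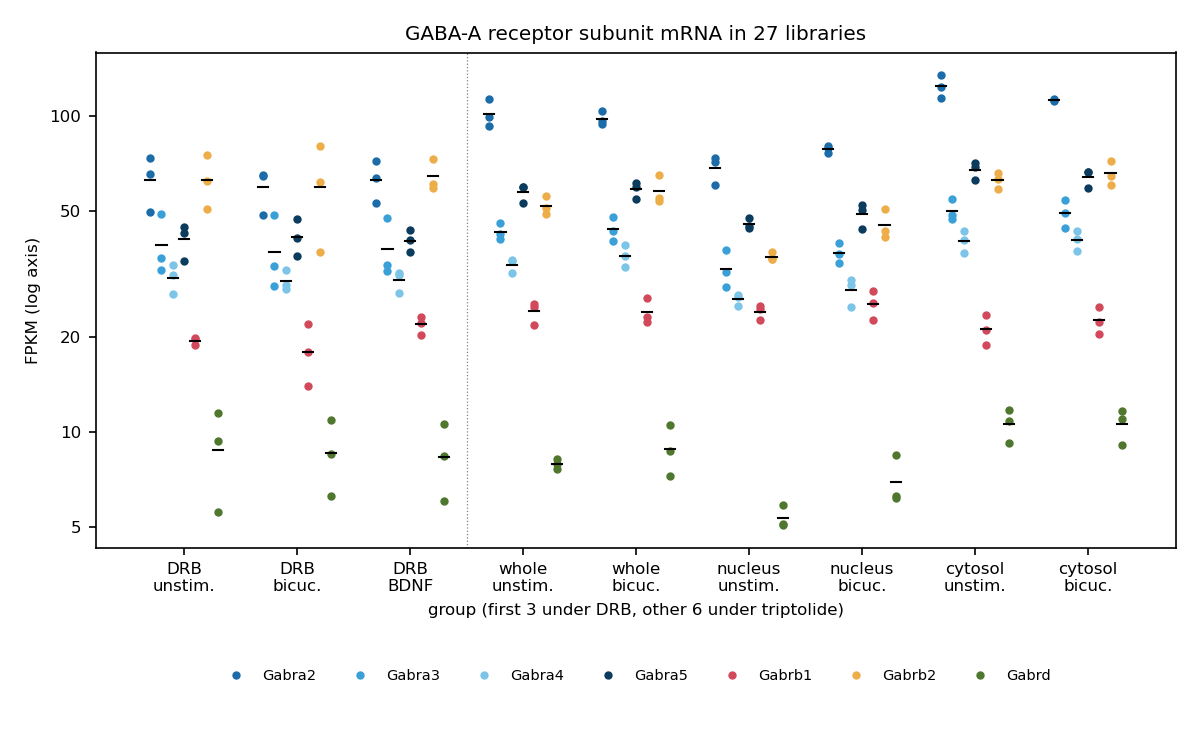
FPKM (log axis) of the 7 subunit genes in each of the 9 groups; points are libraries (3 per group), bars are group means, and the dotted line parts the DRB groups from the triptolide groups. Gabra2 is the highest gene in each of the 6 triptolide groups, Gabrd is the lowest in all 9, and the unstimulated DRB libraries of Gabrd spread from 5.57 to 11.4 FPKM.

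Among the 4 alpha genes of the set, Gabra2 made up 43.0% ± 2.38 (SD, n = 3) of the summed alpha FPKM in unstimulated whole cells under triptolide, Gabra5 24.4% ± 1.61, Gabra3 18.2% ± 1.53 and Gabra4 14.3% ± 0.828. Under DRB without stimulus the shares were 36.0% ± 4.73 for Gabra2, 23.4% ± 1.51 for Gabra5, 22.8% ± 6.67 for Gabra3 and 17.7% ± 1.12 for Gabra4. The larger SD of the Gabra2 and Gabra3 shares came with replicate number 2, described below. Of the remaining subunit genes of the family, Gabrg1 ran from 5.16 to 11.8 FPKM and Gabrg3, another gamma subunit, from 1.81 to 4.34. Gabra6, which is typical of cerebellar granule cells, Gabre, Gabrp and the rho genes Gabrr1, Gabrr2 and Gabrr3 stayed under 1 FPKM in every library. Gabrq, the theta subunit, reached 1 FPKM in 2 of 27 libraries.

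Library depth, read from the steps between low values and counted as if a step were 0.5 fragments, lay between 83486000 and 148096000 fragments in the DRB libraries, and between 67683000 and 89522000 in the others. Of 9 immediate early genes, 9 rose with bicuculline under DRB (median log2 difference 2.26) and 9 rose with BDNF (3.63), beside a median over all genes of 0.00 in each. Under triptolide 7 were tested and 1, Fosb, rose in each fraction (log2 differences 1.04, 1.18 and 0.90 in whole cells, nucleus and cytosol), and 6, 5 and 6 rose with the replicate number as a block in the fit. Summed markers of excitatory neurons ranged from 528 to 900 FPKM over the libraries, of interneurons from 218 to 628, of astrocytes from 340 to 635, of the oligodendrocyte lineage from 63.2 to 229, and of progenitors and proliferation from 11.6 to 49.0. Microglia markers summed to 2.09 to 6.33 FPKM and vascular and mesenchymal markers to 1.21 to 3.40. All 7 excitatory and all 7 astrocyte markers had at least 1 FPKM in every library, and 0 of 5 microglia and 0 of 5 vascular markers did. In such RNA, fewer cells of a type and less RNA per cell cannot be told apart. The sum of 5 nuclear noncoding RNAs, Meg3 among them, was 1102 to 2056 FPKM in nuclear and 218 to 291 in cytosolic libraries. The 8 mRNAs of ribosomal proteins and elongation factors listed as cytosolic summed to 2314 to 2702 in nuclear and 2539 to 2976 in cytosolic libraries. These ranges overlap, so that sum did not set the fractions apart. The libraries of replicate number 2 under DRB stood apart from the others, and 1 nuclear library (bicuculline, number 2) had the highest sum of nuclear RNAs.

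The comparison of nucleus with cytosol gives where these mRNAs were found under triptolide. In unstimulated cells 6 of the 7 were lower in nuclear than in cytosolic RNA, beside 28.0% of the 14205 genes tested that were lower, 39.0% that were higher and 67.0% that differed either way. The median difference of the 7 was -0.61 on the log2 scale, beside 0.06 over all genes. Each value is a share of its own library, so it gives no molecules per cell. Gabrd, the delta subunit, had 5.08, 5.89 and 5.12 FPKM in the 3 unstimulated nuclear libraries and 9.20, 10.9 and 11.8 in the cytosolic ones. The nuclear libraries all lay below the cytosolic ones, with a log2(FPKM + 0.5) difference of -0.92 ± 0.14 (SE; limma, adjusted p = 1.73e-05). Gabra2 had 60.4, 71.1 and 73.6 FPKM in the nucleus and 114, 123 and 134 in the cytosol. These did not overlap either, and the nuclear level was 0.554 times the cytosolic one (log2 difference -0.85 ± 0.08, limma adjusted p = 1.3e-07). Gabrb2 had 35.1, 37.1 and 35.1 FPKM in the nucleus and 58.8, 63.1 and 65.6 in the cytosol, a log2 difference of -0.80 ± 0.09. The other alpha genes were lower by smaller amounts, with log2 differences of -0.61 for Gabra3, -0.60 for Gabra4 and -0.56 for Gabra5.

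Gabrb1, the beta 1 subunit, did not follow them. Its unstimulated libraries had 22.5, 25.0 and 24.5 FPKM in the nucleus and 18.9, 21.0 and 23.4 in the cytosol, so the fractions overlapped. The log2 difference was 0.19 ± 0.10 (95% interval -0.02 to 0.40, limma adjusted p = 0.109). With the replicate number as a block in the fit, Gabrb1 was higher in the nucleus (adjusted p = 0.0021), in 3 of 3 numbers, beside 42.8% of all genes that were higher. Leaving out the cytosolic library of number 3 also gave a call without the block (0.26, adjusted p = 0.0404). With bicuculline the log2 difference of Gabrb1 was 0.17 ± 0.10 (adjusted p = 0.149, and 0.0045 with the block, beside 35.2% of all genes higher; 0.27 and 0.0317 with median-ratio scaling), again higher in the nucleus in 3 of 3 numbers. The FPKM ratio of Gabrb1 to Gabrb2, the other beta gene, was 0.671 ± 0.0292 (SD, n = 3) in unstimulated nuclei and 0.337 ± 0.0182 in cytosol. The log2 ratio of Gabrb1 to each of the 6 other genes was higher in the nucleus, without overlap, in both states. Exact two-sided permutation tests gave p = 0.1 in all 12 of these comparisons (0.1 after Benjamini-Hochberg adjustment), which is the smallest p that 3 against 3 libraries allow. Gabrb1 was singled out from these same libraries, and all 12 comparisons share its values. The ratios therefore restate the differences above and are no separate test of them.

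**Figure D2:**
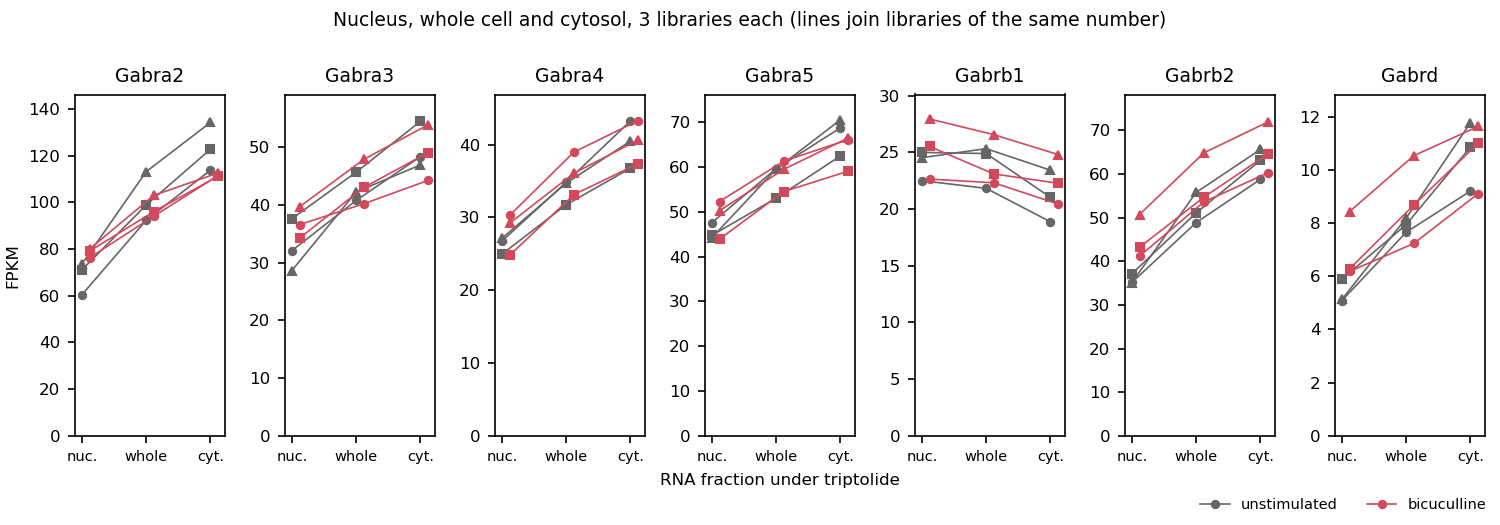
FPKM of each gene in nucleus, whole cell and cytosol under triptolide; each line joins 3 libraries of the same replicate number, grey without stimulus and red with bicuculline, and marker shapes give the number. All lines rise from nucleus to cytosol for 6 genes, while those of Gabrb1 end lower in the cytosol.

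With bicuculline the same 6 genes were lower in the nucleus, beside 31.9% of all genes lower and 63.2% called either way, with log2 differences of -0.58 for Gabrd, -0.54 for Gabrb2, -0.52 for Gabra4, -0.51 for Gabra2, -0.41 for Gabra3 and -0.39 for Gabra5. The level in whole cells lay between the 2 fractions in 6 of 6 sets of same-numbered libraries for each of these 6 genes, and in 5 of 6 for Gabrb1. Of the other subunit genes in the family, 5 of 12 passed the filter, and 4 of these were lower in unstimulated nuclei (median of the 5 -0.60), Gabrg3 by 0.58 on the log2 scale.

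The genes around the receptor were read in the same comparison, in which 28.0% of all genes were lower and 39.0% higher in unstimulated nuclei. Of 8 genes for GABA synthesis, transport and chloride, 5 were lower in unstimulated nuclei and 1 was higher (median -0.93). The lower ones included Slc32a1, the vesicular GABA transporter (-1.46), and Gad1 and Gad2, which make GABA (-1.27 and -1.11). Slc12a2, which imports chloride, was higher (0.56). Of 21 tested partners of the receptor, 11 were lower and 7 higher (median -0.14). Nsf (-0.73) and Lhfpl4 (-0.66), which act in receptor trafficking and clustering, were among the lower, and Rdx, the anchor of alpha 5 receptors (0.78), and Iqsec3 (0.69), a partner of gephyrin, among the higher. Both GABA-B receptor genes were lower, Gabbr1 by 0.45 and Gabbr2 by 0.69 on the log2 scale (median -0.57). Of 15 ionotropic glutamate receptor genes, 8 were lower, led by Grik1 (-0.86), and 1 was higher, Grin2c (0.57), with a median of -0.35.

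The bicuculline response asks how these levels move in the presence of triptolide when the receptors they encode are blocked. In whole cells 0 of the 7 genes were called by limma, and 0 had an unadjusted p under 0.05, beside 0.0352% of 14205 genes called and 11.0% at such a p. With the replicate block it was again 0 of 7, beside 4.23%. The log2 differences ran from -0.05 for Gabra2 to 0.15 for Gabrb2, and the widest 95% interval was that of Gabrd, -0.16 to 0.42. In the nucleus 0 of 7 were called without the block, and 3 had an unadjusted p under 0.05. Over all genes 1.81% were called and 17.4% had such a p. With the replicate block 3 of 7 rose, beside 7.72% of all genes that rose and 13.1% called either way. All 7 differences in the nucleus were positive (median 0.17, over all genes -0.02), and 18 of 21 changes between same-numbered libraries were upward. These 21 changes come from the same 3 pairs of libraries for all 7 genes, so they are not independent. The share of all genes with an upward change is not given here.

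Gabrb2 had 35.1, 37.1 and 35.1 FPKM in unstimulated nuclei and 41.2, 43.2 and 50.7 after bicuculline, in the order of the replicate numbers. The groups did not overlap, and the log2 difference was 0.32 ± 0.09 (adjusted p = 0.0782 without and 0.0019 with the block). Gabra2 had 60.4, 71.1 and 73.6 FPKM in unstimulated nuclei and 76.3, 79.1 and 80.0 after bicuculline. These groups were also apart, by 0.20 ± 0.08 on the log2 scale (adjusted p = 0.208 and 0.0216). Gabrd went from 5.08, 5.89 and 5.12 FPKM to 6.18, 6.28 and 8.43, a log2 difference of 0.34 ± 0.14 (adjusted p = 0.208 and 0.0213). The bicuculline library of number 3 was the highest nuclear library for Gabrb2 and Gabrd. Numbers were also left out of the blocked fit, an alternative added after seeing the data. Without replicate number 3 the blocked differences were 0.22 for Gabrb2 (adjusted p = 0.0165) and 0.17 for Gabrd (0.186), and that of Gabra2 was 0.24 (0.0346). Without number 1 none of the 3 was called with the block, at adjusted p = 0.0638 for Gabrb2, 0.131 for Gabrd and 0.275 for Gabra2, and without number 2 Gabrb2 and Gabrd were (0.0151 and 0.0278) and Gabra2 was not (0.0788). For the 4 other genes the nuclear differences were 0.17 for Gabra3, 0.10 for Gabra5, 0.09 for Gabra4 and 0.07 for Gabrb1, and none passed in either fit.

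Values of other RNAs moved beside this. The 5 nuclear noncoding RNAs summed to 1348 to 1423 FPKM in unstimulated nuclei, and to 1115, 2056 and 1102 in the nuclear libraries of bicuculline numbers 1, 2 and 3. Excitatory markers summed to 814, 751 and 708 FPKM in unstimulated nuclei of numbers 1, 2 and 3, and to 785, 692 and 900 after bicuculline. The last of these was the highest of the 27 libraries, and is the library with the highest nuclear Gabrb2 and Gabrd. Astrocyte markers summed to 576, 635 and 541 FPKM and to 485, 529 and 578, lower after bicuculline in numbers 1 and 2. Interneuron markers summed to 218 to 242 and 218 to 288 FPKM. The part of these in the nuclear rise was not tested. Of the other lists in the same comparison, 1 of 8 genes for GABA synthesis, transport and chloride rose, Slc12a5, the neuronal chloride exporter (0.33, adjusted p = 0.024), with 4 of 8 in the blocked fit (median 0.21). Of 21 partners 1 fell, Gabarap, a carrier of gamma-containing receptors (by 0.20 on the log2 scale, adjusted p = 0.0416), the median was 0.01, and 3 rose with the block. Of the 5 other tested subunit genes 0 were called without the block and 3 rose with it, and 3 had an unadjusted p under 0.05 (median 0.18). Of 15 ionotropic glutamate receptor genes 3 rose: Gria3 (0.39), Grin1 (0.32) and Gria1 (0.28), with a median of 0.20, and 6 rose with the block. Neither GABA-B gene was called in either fit (median 0.11), and both had an unadjusted p under 0.05.

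In the cytosol 0 of 7 were called by limma without the block (3.27% of all genes) or with it (15.3%), and 0 had an unadjusted p under 0.05 without it, beside 19.5% of all genes. The log2 differences ran from -0.14 for Gabra2 to 0.09 for Gabrb1, beside a median of 0.08 over all genes. Gabra2 had 114, 123 and 134 FPKM in unstimulated cytosol and 112, 111 and 113 after bicuculline, so its 3 stimulated libraries lay below all unstimulated ones. With median-ratio scaling added to the block, Gabra2 (-0.24, adjusted p = 0.0263) and Gabra5 (-0.17, adjusted p = 0.0362) fell, in an alternative added after seeing the data. Of the 21 partners 0 were called by limma in the cytosol, 7 had an unadjusted p under 0.05 (19.5% of all genes), and 6 rose with the block.

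The nuclear and cytosolic responses were compared directly, as the change of the nucleus-cytosol difference with bicuculline. Without the block limma called 0 of 7, and 1 had an unadjusted p under 0.05. Over all genes 0.556% were called and 16.4% had such a p. With the block Gabra2 (0.34 ± 0.08, adjusted p = 0.0143) and Gabrb2 (0.25 ± 0.08, adjusted p = 0.0491) were called, both toward the nucleus, beside 2.84% of all genes in that direction and 9.76% either way. Their adjusted p without the block were 0.168 and 0.332. The median of the 7 was 0.20, beside -0.11 over all genes. That of Gabrb1 was -0.02 (95% interval -0.31 to 0.28). Without any 1 of the replicate numbers, 0 of 7 were called in the blocked fit, which then rests on 2 numbers.

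**Figure D3:**
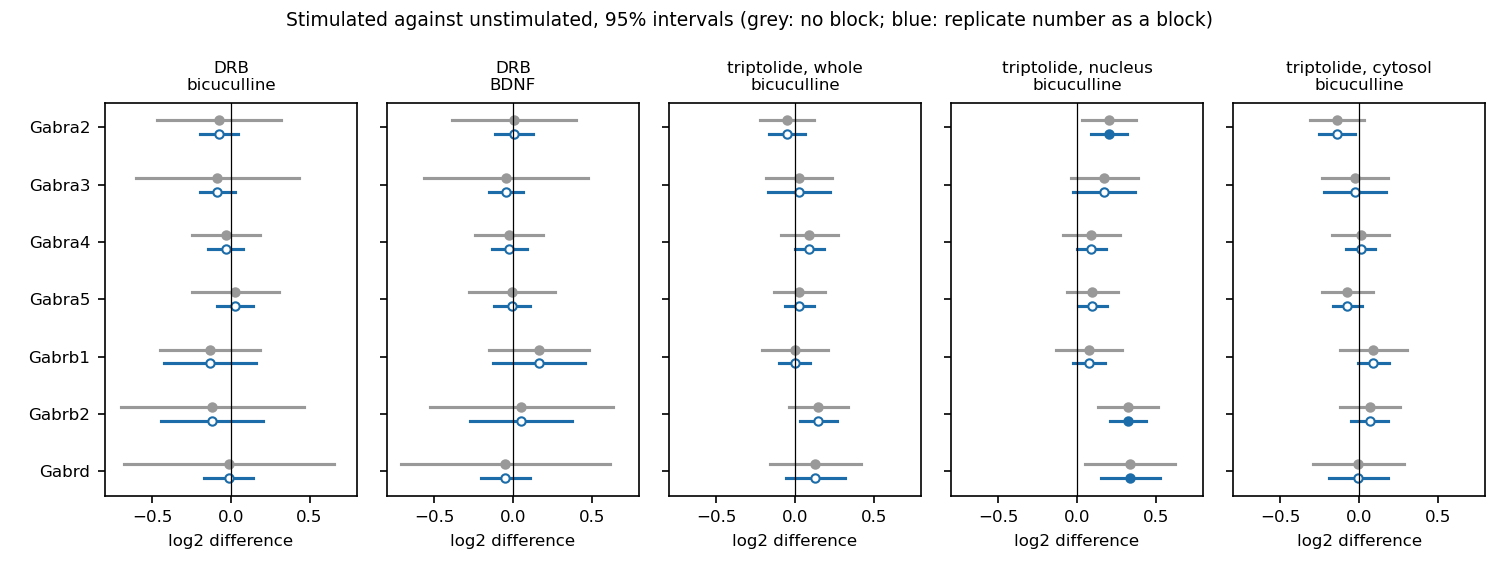
Log2(FPKM + 0.5) differences between stimulated and unstimulated libraries with 95% intervals, for the 2 stimuli under DRB and for bicuculline in 3 fractions under triptolide; grey without and blue with the replicate number as a block, and filled blue points passed an adjusted p under 0.05 in the blocked fit. Filled blue points appear for Gabra2, Gabrb2 and Gabrd in the nucleus.

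Under DRB the question was whether either stimulus moves the subunit genes within 1 h in the presence of this inhibitor. Bicuculline left 0 of 7 called by limma, with 0 at an unadjusted p under 0.05, beside 0.308% of 13321 genes called, and 0 of 7 with the block, beside 0.571%. BDNF likewise gave 0 of 7 called and 0 at an unadjusted p under 0.05, beside 0.638%, and 0 of 7 with the block, beside 1.49%. In the same libraries 9 of 9 immediate early genes rose with each stimulus. Mean Npas4 went from 5.87 to 162 FPKM with bicuculline, and mean Arc from 0.924 to 124 FPKM with BDNF. How far DRB blocked elongation in these cells was not tested. The bicuculline differences were -0.08 for Gabra2, -0.09 for Gabra3, -0.03 for Gabra4, 0.03 for Gabra5, -0.13 for Gabrb1, -0.12 for Gabrb2 and -0.01 for Gabrd on the log2 scale. With the block their 95% intervals reached from -0.20 to 0.04 for Gabra2 and from -0.44 to 0.20 for Gabrb2, the widest of the 7. The BDNF differences ran from -0.05 for Gabrd to 0.17 for Gabrb1. The 2 responses share their unstimulated libraries. None of the other GABA and glutamate receptor lists, receptor partners included, had a called member in either response, with or without the block, or a member with an unadjusted p under 0.05 without it.

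Gabrb1 had the largest difference between the stimuli. Its libraries had 17.9, 22.0 and 13.9 FPKM with bicuculline and 20.3, 22.2 and 23.1 with BDNF, in the order of the replicate numbers. BDNF was higher in 3 of 3 numbers, but the groups overlapped and the log2 difference was 0.30 ± 0.14 (unadjusted p = 0.0604, adjusted p = 1.00; with the block 0.0459 and 0.600). The bicuculline library of number 3 was the lowest of all 27 for Gabrb1, and the log2 changes from bicuculline to BDNF within numbers 1, 2 and 3 were 0.18, 0.01 and 0.71. That library also had the lowest Gabrb2 under DRB (37.2 FPKM against 50.8 to 80.1). Within numbers 1, 2 and 3 the log2 changes of Gabrb2 with bicuculline were -0.01, 0.09 and -0.45. Leaving out that library alone turned the group difference from -0.12 to 0.18, with neither called, but this sets numbers 1 and 2 against all 3 unstimulated ones, of which number 3 was the lowest. Over all genes limma called 0.128% between the stimuli, and of the 7 it called 0, with 0 at an unadjusted p under 0.05. With the block it called 0 of 7, beside 0.540%.

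Subunit levels under DRB differed between the replicate numbers. For 6 of the 7 genes the 3 libraries of number 2 lay all above or all below the 6 others. The same held for 33.3% of the 13321 genes tested, and for 11.6% with number 1 and 14.0% with number 3. Gabra3 had 47.5 to 48.8 FPKM in number 2 and 29.0 to 35.6 in the others, and Gabrd 10.6 to 11.4 against 5.57 to 9.37. Gabrb2 was likewise above, with 73.0 to 80.1 FPKM against 37.2 to 61.9. Gabra2 was below, with 48.4 to 53.0 FPKM in number 2 and 63.3 to 73.2 in the others, and so were Gabra4 and Gabra5. The FPKM ratio of Gabra2 to Gabra3 was 0.999 to 1.11 in number 2, 1.83 to 1.93 in number 1 and 2.23 to 2.25 in number 3. Number 3 stood at the other end, with Gabra3, Gabrb2 and Gabrd below and Gabra5 above all other libraries. Gabrb1 overlapped for every number.

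**Figure D4:**
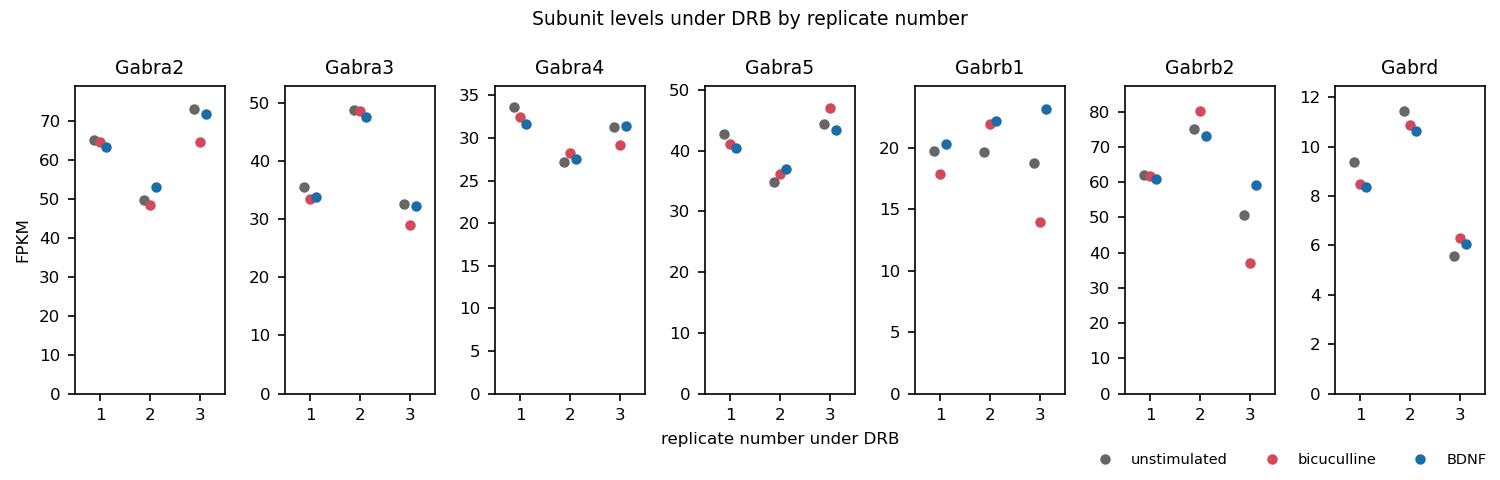
FPKM of each gene in the 9 DRB libraries by replicate number; colours give the stimulus. Libraries of number 2 are highest for Gabra3, Gabrb2 and Gabrd and lowest for Gabra2, Gabra4 and Gabra5.

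Other RNAs moved with these numbers. Markers of progenitors and proliferation summed to 14.2 to 15.0 FPKM in number 2 and to 29.6 to 40.0 in the others. Nuclear noncoding RNAs summed to 632 to 668 FPKM in number 2 and to 313 to 438 in the others, and interneuron markers to 372 to 416 and 457 to 571. Excitatory markers were lowest in number 3 (528 to 588 FPKM) and overlapped between numbers 1 and 2. The part of these RNAs in the subunit levels was not tested. The labels do not say whether a number marks a culture.

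Unstimulated DRB libraries were also set beside unstimulated whole cells under triptolide, where inhibitor and exposure time differ together and cannot be told apart. The sample codes differ as well, and the labels do not say whether the cultures were the same. Of the 7 genes 2 were lower under DRB, beside 15.4% of 13814 genes lower, 48.0% higher and 63.4% either way. Gabra2 had 65.1, 49.7 and 73.2 FPKM under DRB and 92.4, 98.9 and 113 under triptolide, without overlap (log2 difference -0.70 ± 0.14, adjusted p = 0.0012). Gabra5 had 42.6, 34.8 and 44.4 against 59.7, 53.1 and 59.6 FPKM, also without overlap (-0.50 ± 0.11, adjusted p = 0.0018). Gabrb1 (-0.30, adjusted p = 0.0688), Gabra3 (-0.16), Gabra4 (-0.14), Gabrd (0.09) and Gabrb2 (0.25) were not called. The median of all genes was 0.26 higher under DRB, and scaling moved the calls: 5 of 7 were lower with median-ratio scaling, which added Gabra3 (-0.48), Gabra4 (-0.46) and Gabrb1 (-0.62), and 4 with quantile normalization. Gabrb2 and Gabrd were called under none of the scalings tried. Oligodendrocyte lineage markers summed to 174 to 227 FPKM under DRB and 73.3 to 89.6 under triptolide, and their part was not tested. The bicuculline response itself did not differ by the test between the inhibitors for any of the 7: limma called 0, with 0 at an unadjusted p under 0.05, beside 0.138% of all genes, and 0 with the block, beside 0.275%. The widest interval was that of Gabrd, -0.88 to 0.59 on the log2 scale.

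Genes with the most similar pattern over the 27 libraries were found by Pearson's r of log2(FPKM + 0.5) among 10871 named genes with a mean of at least 1 FPKM. These correlations share the differences between fractions, inhibitors and replicate numbers, and are given as a description. The nearest to Gabra2 was Dpp6 (r = 0.975), to Gabra3 Ntm (0.941), to Gabra4 Slc24a3 (0.949), to Gabra5 Tmem35 (0.982), to Gabrb2 Cadm2 (0.973) and to Gabrd Cntnap1 (0.936). Gabrb1 had the lowest nearest value, 0.903 with Scn8a, a sodium channel gene. The next 2 genes were Nrcam and Timp2 for Gabra2, Kcna6 and Acsl4 for Gabra3, Cbln2 and Spock3 for Gabra4, Qpct and Dgat2 for Gabra5, Lnpep and Akap11 for Gabrb1, Cntnap5a and Sema7a for Gabrb2, and Syt2 and Kcnj11 for Gabrd.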

How the data were processed

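The authors deposited FPKM per gene and library, with FASTDB identifiers and gene coordinates, per the file headers. The tools listed in the submitters' processing notes are STAR 2.4.0, SAMtools, Picard and FastQC, and the build listed is mm10. Which program made the FPKM is not given in the sources used here. The analysis took log2(FPKM + 0.5). Genes with at least 1 FPKM in at least 3 libraries of a fit were tested with limma 3.58.1 in R 4.3.3 (a mean per group, moderated variance with trend and robust settings), and the p-values were adjusted over all genes tested (Benjamini-Hochberg, threshold 0.05), in 11 comparisons. Fits took the 9 DRB libraries, the 18 triptolide libraries, or 12 of both. The steps were tested on simulated data. Fold changes of low genes are understated on this scale. FPKM hold no counts, so no counting interval is given.

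Groups came from the labels. Nothing says that replicates came from separate cultures, so p-values measure the spread between these libraries, which may be technical. Same-numbered libraries carry the same sample code across the groups of an inhibitor. Their deviations from group means correlated (r from 0.46 to 0.90 in 9 of 9 DRB pairs, 0.26 to 0.69 in 45 of 45 triptolide pairs). The numbers were therefore taken to pair the libraries, from this check and not from a label, and the fit with the number as a block is given where it changes a call. The members and gene lists were chosen with earlier results of these data known. The rule named all 7 members, the remaining subunit genes, the called genes of other lists (at most the 4 largest per direction) and the 3 most similar genes per member; a few genes of these lists are not reported singly here. No entry matched 1 of 22 listed partners and 1 of 16 listed glutamate receptor genes. Alternatives were another pseudocount (0.1), no filter, median-ratio scaling, quantile normalization, the replicate block and leaving out each library. Promoter windows are from RefSeq, gene overlaps from GENCODE M21 on the same build. Summaries and figures used Python 3.11.15, pandas 2.3.3, numpy 2.4.6, scipy 1.17.1 and matplotlib 3.10.9.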

Additional observations from a re-analysis of the deposited data

Results flagged for a closer look

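The bicuculline effect differed between nucleus and cytosol for 2 of the 7 genes by the test of that difference in the fit with the replicate block. It was 0.3438 for Gabra2 (adjusted p = 0.0143) and 0.2550 for Gabrb2 (adjusted p = 0.0491) on the log2 scale, in both toward the nucleus. Neither was called without the block (adjusted p = 0.168 and 0.332) or, with it, without any 1 of the replicate numbers. Groups of 3 libraries were not searched for outlying samples.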

How the results depend on the processing

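Of 1008 values of single subunit genes under the alternatives, 981 stayed on their side of the threshold, 27 passed it where the reported fit did not, and 0 of the called ones lost their call or changed sign; 108 values of changes that were not called took the other sign. The cause of the shifts below was not tested. The replicate block raised the number of genes called from 41 to 76 (bicuculline, DRB), 85 to 199 (BDNF), 17 to 72 (BDNF against bicuculline), 5 to 601 (bicuculline, whole cells), 257 to 1862 (nucleus), 465 to 2175 (cytosol), 79 to 1387 (change of the nucleus-cytosol difference) and 19 to 38 (DRB against triptolide response). It raised the subunit genes called from 0 to 3 in the nucleus and from 0 to 2 for the change of the nucleus-cytosol difference, and beside Gabrb1 between the fractions, given above, it changed no other call of the 7. With median-ratio scaling added to the block (chosen after seeing the data) the counts were 2117, 1006 and 1051 genes in the nucleus, the cytosol and the change between them, and 3, 2 and 3 subunit genes, the last with Gabra5 (0.25) added. Without a filter 561 genes were called in the nucleus, 106 in the cytosol, 29 for the change, and 19387 and 16850 between the fractions without and with bicuculline, against 9511 and 8983. Quantile normalization gave 682 (nucleus), 2 (cytosol) and 48 (change), median-ratio scaling 24 in the cytosol, and the pseudocount 0.1 gave 11 for the DRB against triptolide response. Of the subunit genes 5 (median-ratio) and 4 (quantile) were called between unstimulated DRB and triptolide, against 2. Both scalings also put Gabrb1 higher in the nucleus with bicuculline (0.27 and 0.28).

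Leaving out single libraries gave 27 to 38 genes for bicuculline and 50 to 68 for BDNF under DRB, 9 to 20 between them, 1 to 5 in whole cells, 21 to 520 in the nucleus, 12 to 334 in the cytosol, 9 to 671 for the change and 9 to 19 for the DRB against triptolide response. The lowest nuclear count came without unstimulated number 1 and the highest without bicuculline number 2, the lowest cytosolic count without unstimulated number 3, and the lowest and highest counts of the change without cytosolic bicuculline number 1 and nuclear bicuculline number 2. In the fit with the block (chosen after seeing the data), leaving out a replicate number gave 70 to 1516 genes in the nucleus, 92 to 1208 in the cytosol and 3 to 1423 for the change, 972 and 247 in the nucleus and cytosol without number 3, each lowest without number 1, and 0 to 2 subunit genes in the nucleus and 0 for the change. Without the block, leaving out libraries moved no count of subunit genes by over 1.5 times. No paired analysis was possible for unstimulated DRB against triptolide because their numbers carry different sample codes. With 3 libraries a group, differences under the intervals given were not detectable.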
